A study of Mus musculus with 2 samples.

Results

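The genes described here are 60 factors that assemble ribosomes without becoming part of them, from the first nucleolar steps to the last cytoplasmic ones. They were taken by name from a list of small and large subunit assembly factors, by a rule that uses no measured value, although the list was drawn up with earlier results of these data known. Of the 60, 59 were found by symbol in a table of 52366 genes, and Riok2, a kinase of late small subunit maturation, was not analysed here. After a filter on low counts 56 of the 59 were tested among 5940 genes, and 52 of the 59 had counts in every embryo. Noc4l, Bop1 and Nob1 did not pass the filter and are described by their levels alone. All 59 are annotated as protein-coding genes.

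Ribosomes begin in the nucleolus, where RNA polymerase I transcribes a long precursor of the ribosomal RNAs. Small nucleolar ribonucleoprotein particles (snoRNPs) guide its modification, the small subunit processome folds and cleaves its upstream part, and a separate set of factors builds the large subunit on the rest. Both subunits then leave for the cytoplasm, where a few late factors license them for translation. In the mouse the embryo makes its own functional nucleoli only after fertilization, and by the blastocyst stage every lineage is producing ribosomes for growth.

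The data came from 24 mouse pseudoblastocysts, that is, embryos with a cavity that were collected without asking whether they contained an inner cell mass (ICM). All were made by in vitro fertilization of B6D2F1 oocytes, from females of 8 to 9 weeks, with ICR sperm from males of 15 to 20 weeks, and all were cultured to 96 h postinsemination (hpi). They comprised 6 1C embryos, which developed from whole zygotes freed of the zona pellucida at 5 hpi, and 6 embryos each from 1 blastomere of the 2-cell (2CB, isolated at 24 hpi), 4-cell (4CB, at 48 hpi) or 8-cell stage (8CB, also at 48 hpi). No genetic or drug treatment was applied, and 1C embryos are the reference. Each embryo was barcoded and sequenced as a whole with CEL-Seq2, which captures the 3′ end of polyadenylated RNA, so a value is an average over all cells of an embryo, and fewer cells of a type cannot be told apart from less RNA per cell. Libraries were made in 2 pools of 12 embryos, 1C with 8CB and 2CB with 4CB. Pool and this division of the embryos are the same and cannot be told apart in any comparison across it.

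Total counts of unique molecular identifiers (UMIs) ranged from 70941 to 368348 in the pool of 1C and 8CB embryos and from 132725 to 1507471 in the pool of 2CB and 4CB embryos. Levels are given as counts per 1000000 UMIs of the embryo (CPM), and they are compared between embryos for 1 gene, not between genes. A gene was called at a Benjamini-Hochberg adjusted p below 0.1 over all 5940 genes in edgeR, and ± after a log2 fold change is its standard error. The sums of cell type markers also differed across the pools. Trophectoderm markers summed to 3390 to 7010 CPM in 2CB and 4CB embryos against 878 to 1320 CPM in 1C and 8CB embryos, with 10 of 14 tested markers higher and 2 lower. Primitive endoderm markers summed to 1310 to 3080 CPM against 776 to 1410 CPM, with 6 of 7 higher and 1 lower. Epiblast and ICM markers summed to 347 to 1160 CPM against 663 to 2400 CPM, with 3 of 7 higher and 4 lower, and no marker of these lists was at 0 throughout. Oocyte markers, of which none was tested, summed to 5.21 to 28.7 CPM against 14.1 to 103 CPM. Of the cumulus and granulosa markers 7 of 11, including the defining Fshr, Foxl2 and Amh, were at 0 in every embryo, and the single tested one was higher in 2CB and 4CB embryos. The part of these differences in the results below was not tested.

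The promoters of the members were examined for short motifs, because many of the genes moved together. RefSeq windows (GRCm38.p6) from 250 bases before to 50 bases after the start of transcription were found for 50 of the 60. The E-box CACGTG, searched on both strands, lay in 11 of the 50 windows (22%), against 7.15% of all 32851 windows and 12.5% of the 4658 tested genes with a window. Shown here are the 100 bases before the start of 3 members that were lower in 2CB and 4CB embryos and hold the E-box in that stretch. They are the promoters of Nop2 (chr6:125131783-125131882, + strand), Utp18 (chr11:93885767-93885866, - strand) and Rpf2 (chr10:40246980-40247079, - strand), written 5′ to 3′ on the strand of the gene with the E-box in capitals.
Nop2: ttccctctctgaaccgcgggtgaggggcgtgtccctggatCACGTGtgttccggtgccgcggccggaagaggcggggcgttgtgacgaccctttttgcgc
Utp18: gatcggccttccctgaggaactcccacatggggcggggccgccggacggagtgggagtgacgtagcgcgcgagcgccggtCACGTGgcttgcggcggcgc
Rpf2: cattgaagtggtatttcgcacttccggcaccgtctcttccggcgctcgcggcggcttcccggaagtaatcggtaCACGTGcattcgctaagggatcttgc
The first base of the E-box lies at position -60 in Nop2, -20 in Utp18 and -26 in Rpf2, counted from the RefSeq start. The gene model of Rpf2 used for the counts begins at chr10:40247036, upstream of its RefSeq start. Its E-box at -26 therefore lies inside that gene model. Rpf2 holds a further E-box after the start, as do Utp4, Ltv1, Utp20, Pes1, Pno1, Tsr1 and Wdr43, and Imp4 holds 1 at -121. The ETS motif CCGGAAG was found in 17 of the 50 windows (34%), against 24.2% of tested genes. The NRF1 core GCGCATGC was found in 6% of member windows and 6.87% of tested genes, the YY1 motif GCCATNTT in 10% and 13.1%, and TATAAA in 6% and 7.64%. These are matches of letters, and binding was not measured.

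The study of these embryos had already reported genes for ribonucleoprotein biogenesis as enriched in 1C and 8CB pseudoblastocysts. The values below come from the same data and are not an independent test of that report. The first question was whether RNA for ribosome assembly differed between 2CB and 4CB embryos on one side and 1C and 8CB embryos on the other. It did for most members, and in 1 direction. Of the 56 tested, 35 (62.5%) were lower in 2CB and 4CB embryos, where 24% of all tested genes were called lower. None was higher, where 31.3% of all tested genes were called higher. The median log2 fold change of the 56 was -0.67, against 0.12 over all tested genes, and 50 of the 56 values were negative. Of the 35 calls 29 held in every fit that left out 1 embryo. In the test among the 4 embryo types 29 of the 56 were called (51.8%), close to the 47.1% of all tested genes, and 15 after every embryo was thinned to 70941 UMIs, where 34.1% of all tested genes were.

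Together the 59 members made up 1.63% ± 0.178, 0.939% ± 0.0667, 1.01% ± 0.103 and 1.49% ± 0.0874 of the UMIs of 1C, 2CB, 4CB and 8CB embryos, respectively (SD, n = 6 each). The lowest 1C or 8CB embryo stood at 1.36% and the highest 2CB or 4CB embryo at 1.1%, so the sides did not overlap. With Npm1, Ncl, Nop56 and Nop58, which gave the most UMIs to this sum, left out the share was 0.798% to 1.1% in 1C and 8CB embryos and 0.592% to 0.728% in 2CB and 4CB embryos, again without overlap. Single members differed widely, as the plot of fold changes by role shows.

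**Figure D1:**
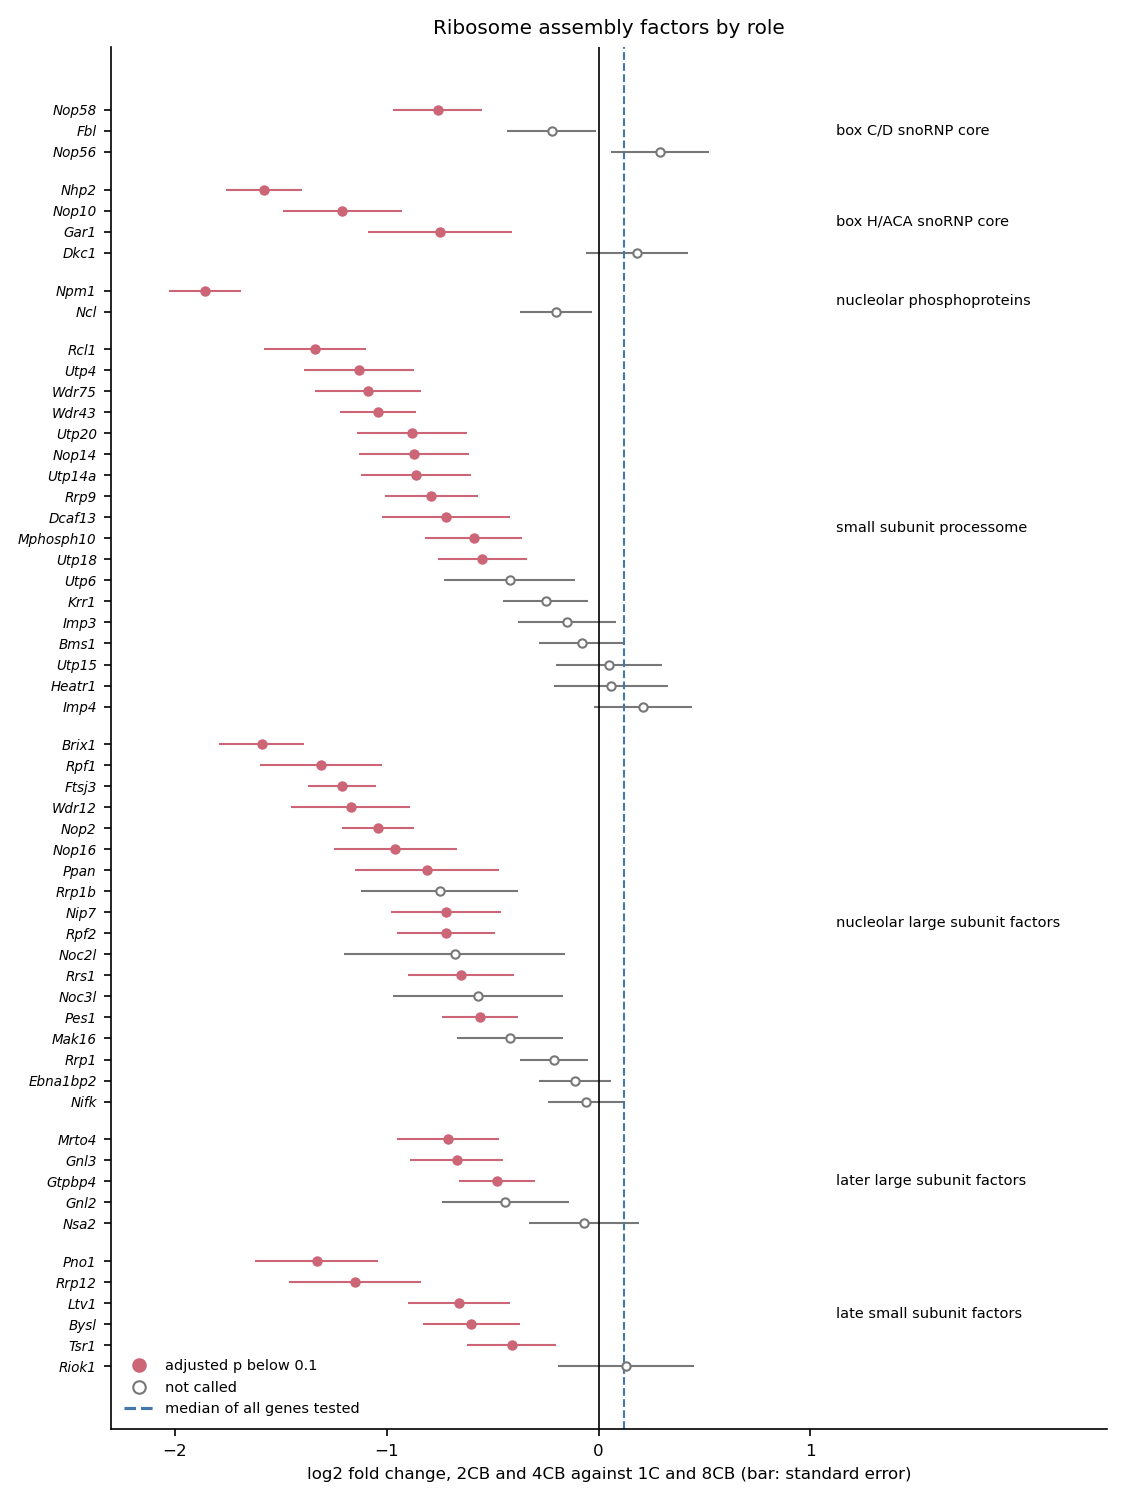
Log2 fold change of each of the 56 tested members between the 12 embryos of 2CB or 4CB type and the 12 of 1C or 8CB type, with bars for the standard error and members grouped by role; filled points passed an adjusted p below 0.1 and the dashed line is the median of all tested genes, 0.12. Most points lie left of 0, down to -1.86 for Npm1, while in each role at least 1 member is not called.

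The box C/D snoRNPs place methyl groups on the ribose of ribosomal RNA, and their core shared by all guides contains Nop56, Nop58 and the methyltransferase fibrillarin (Fbl). Only Nop58 of these was called. Nop58 had a lowest, median and highest level of 796, 1350 and 2010 CPM in 1C, of 226, 539 and 754 CPM in 2CB, of 264, 766 and 861 CPM in 4CB and of 526, 685 and 1130 CPM in 8CB embryos. The 1C embryos were thus the high ones, all above every 2CB embryo, whereas 8CB embryos overlapped both 2CB and 4CB embryos. Its log2 fold change was -0.76 ± 0.21 across the division (adjusted p = 0.00385), -1.36 ± 0.3 for 2CB against 1C (adjusted p = 0.000863) and -0.16 ± 0.3 for 4CB against 8CB (adjusted p = 0.716). Nop56, its partner in the same particle, ranged from 265 to 1160 CPM in 1C and 8CB embryos and from 371 to 1050 CPM in 2CB and 4CB embryos. These ranges coincided, with a log2 fold change of 0.29 ± 0.23 (adjusted p = 0.308). Without 8CB replicate 6, the shallowest embryo and the one with the highest Nop56 level, Nop56 was called higher in 2CB and 4CB embryos (0.45 ± 0.22, adjusted p = 0.0845). Fbl, with medians of 84.9, 76.6, 65 and 73.4 CPM in 1C, 2CB, 4CB and 8CB embryos, differed by -0.22 ± 0.21 (adjusted p = 0.408), and its extremes, 46.2 and 112 CPM in 1C embryos, enclosed nearly all the other values. Nop56 and Fbl share 38.8% and 67.4% of the 50-base stretches at their 3′ ends with other annotated genes, so their counts are uncertain.

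The box H/ACA snoRNPs convert uridines to pseudouridine. Their catalytic subunit is dyskerin (Dkc1), and Nhp2, Nop10 and Gar1 complete the core. The 3 small partners were lower in 2CB and 4CB embryos and dyskerin was not called. Nhp2 (ENSMUSG00000001056.3, chr11:51619735-51623714, + strand, GRCm38) had a lowest, median and highest level of 316, 404 and 534 CPM in 1C, 131, 173 and 264 CPM in 2CB, 63.8, 151 and 178 CPM in 4CB and 377, 489 and 789 CPM in 8CB embryos. Every 2CB and 4CB embryo was below every 1C and 8CB embryo, which held for 2.21% of all tested genes. The log2 fold change of Nhp2 was -1.58 ± 0.18 (adjusted p = 3.25e-08), the third largest of the group. For Nop10 it was -1.21 ± 0.28 (adjusted p = 0.000858), from means of 84.9 and 109 CPM in 1C and 8CB embryos to 44.4 and 36.5 CPM in 2CB and 4CB embryos. Gar1 was low, with medians of 17.2 to 34.9 CPM, and differed by -0.75 ± 0.34 (adjusted p = 0.0717), a call that 6 of the 24 fits without 1 embryo did not make. Dkc1 ranged from 212 to 803 CPM in 1C and 8CB embryos and from 119 to 716 CPM in 2CB and 4CB embryos, with a log2 fold change of 0.18 ± 0.24 (adjusted p = 0.575). Dkc1 and Nhp2 each overlap an exon of another gene on the opposite strand (Mpp1 and Rmnd5b), and the strand setting of the counts is not stated in the sources used here.

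Nucleophosmin (Npm1) and nucleolin (Ncl) are the abundant phosphoproteins of the nucleolus, which chaperone histones and pre-ribosomal particles. Npm1 (ENSMUSG00000057113.13) lies on the - strand at chr11:33152287-33163206 in GRCm38. It had a lowest, median and highest level of 2450, 3370 and 3860 CPM in 1C, 633, 741 and 1150 CPM in 2CB, 422, 913 and 1250 CPM in 4CB and 1890, 2930 and 3190 CPM in 8CB embryos. The sides were far apart, and this was the largest change among the members, -1.86 ± 0.17 (adjusted p = 7.57e-10). It was present in each comparison across the pools, at -2.02 ± 0.24 for 2CB against 1C (adjusted p = 3.88e-07) and at -1.71 ± 0.24 for 4CB against 8CB (adjusted p = 4.43e-06). Ncl, in contrast, had medians of 1330, 982, 1060 and 1050 CPM in 1C, 2CB, 4CB and 8CB embryos and ranges that overlapped throughout. Its log2 fold change was -0.2 ± 0.17 (adjusted p = 0.321). For Npm1, 25.1% of the 50-base stretches at the 3′ end also occur in other annotated genes, mostly predicted ones with Gm names.

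**Figure D2:**
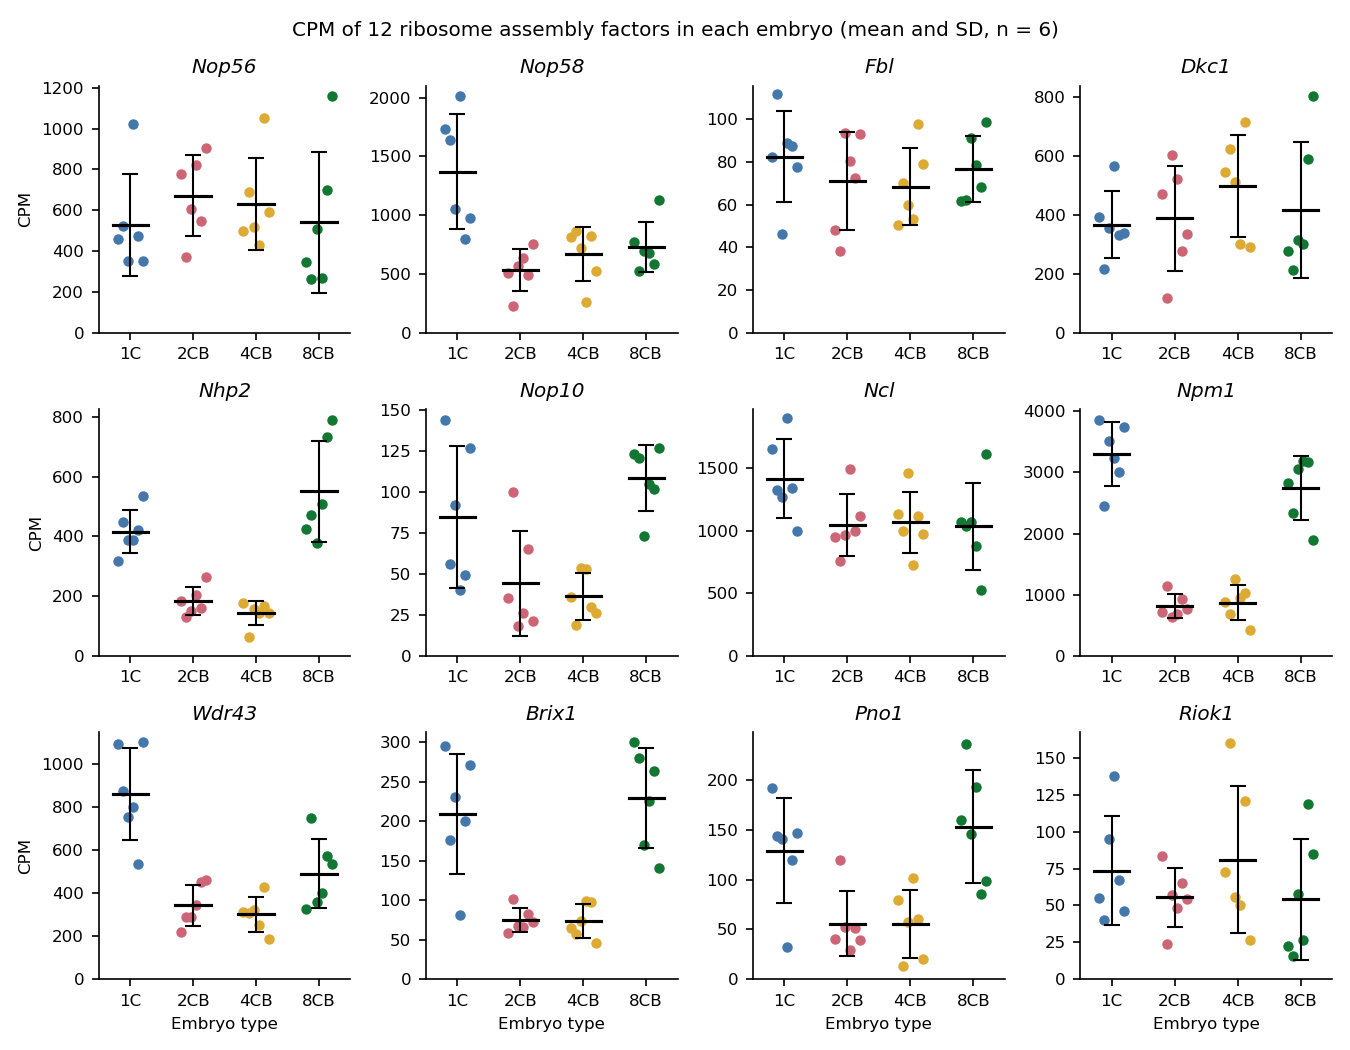
CPM of 12 members in each of the 24 embryos, with points for embryos and lines for the mean and SD (n = 6 per embryo type), on axes that start at 0. Npm1 and Nhp2 separate 2CB and 4CB embryos from 1C and 8CB embryos completely, Nop58 is high in 1C embryos (mean 1370 CPM), and Nop56, Fbl, Dkc1, Ncl and Riok1 overlap in all types.

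Ratios within 5 pairs of genes were computed, a description that was chosen after the values were seen and was not tested. The ratio of Nhp2 to Dkc1 CPM had a median of 1.18 in 1C and 1.39 in 8CB embryos but 0.487 in 2CB and 0.318 in 4CB embryos. Between Npm1 and Ncl the ratio had medians of 2.29 (1C) and 2.74 (8CB) on one side and 0.719 (2CB) and 0.823 (4CB) on the other. The ratio of Nop58 to Nop56 was 1.67 to 3.76 in 1C embryos and 0.608 to 0.94 in 2CB embryos, with 4CB (0.612 to 1.62) and 8CB embryos (0.841 to 2.52) in between. Brix1 to Imp4 had a median of 1.7 in 1C and 8CB embryos and 0.455 in 2CB and 4CB embryos. The paralogs Rrp1b and Rrp1 showed no such difference, with medians of 0.669 and 0.701 and overlapping ranges (0.274 to 2.27 and 0.248 to 1.3). Because CEL-Seq2 counts depend on how well each 3′ end is captured, a difference between embryos can be read and the size of a ratio cannot.

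**Figure D3:**
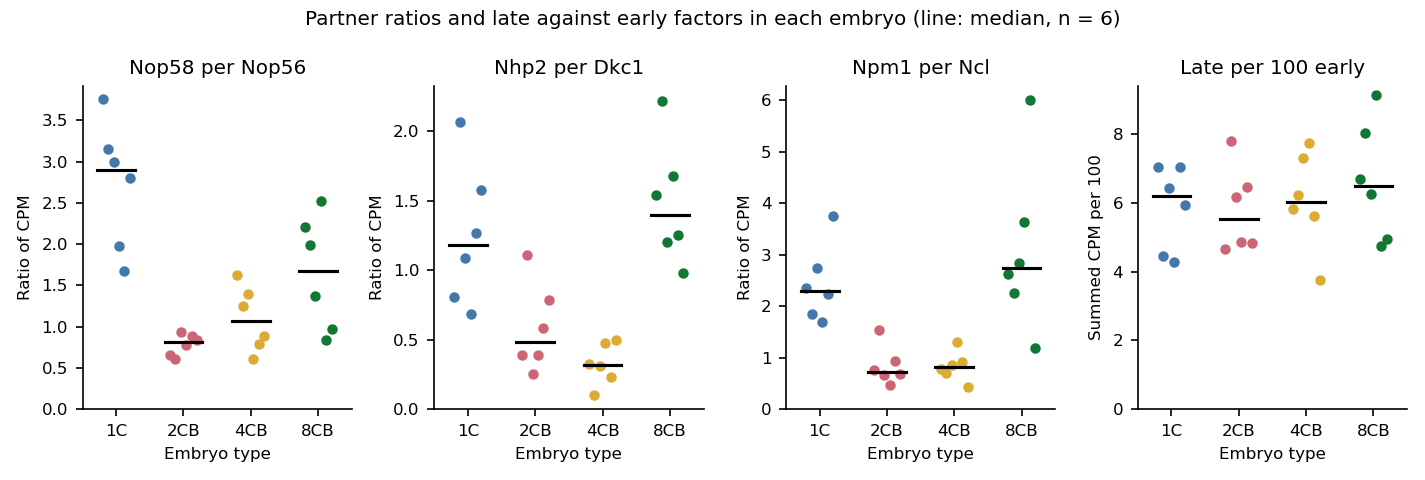
Ratio of CPM of 3 of the 5 pairs of genes in each embryo, and summed CPM of the late cytoplasmic members per 100 CPM of the early nucleolar members, with lines at the median (n = 6). The medians of the first 3 panels are lower in 2CB and 4CB embryos (Npm1 per Ncl 0.719 and 0.823 against 2.29 and 2.74), although the ranges of the sides overlap in each. The last panel shows medians of 5.52 to 6.49 in every type.

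The small subunit processome is the large particle that forms co-transcriptionally on the precursor RNA. Of its 19 members 18 were tested, 11 were lower and none was higher, and the median of the 18 log2 fold changes was -0.65. By comparison, 24% of all tested genes were lower and 31.3% were higher, and their median was 0.12. The processome subcomplex that loads first, and that is linked to transcription of the ribosomal genes, contains Wdr43, Wdr75, Utp4, Utp15 and Heatr1. Wdr43 had a lowest, median and highest level of 534, 837 and 1100 CPM in 1C, 221, 318 and 460 CPM in 2CB, 184, 309 and 429 CPM in 4CB and 325, 468 and 750 CPM in 8CB embryos. All 1C embryos were above all 2CB and 4CB embryos, and 8CB embryos were intermediate. Its log2 fold change was -1.04 ± 0.18 (adjusted p = 3.12e-05). Utp4 and Wdr75 were lower by similar amounts, -1.13 ± 0.26 and -1.09 ± 0.25 (adjusted p = 0.000624 and 0.000625). Utp15 and Heatr1 of the same subcomplex were not called, at 0.05 ± 0.25 and 0.06 ± 0.27 (adjusted p = 0.887 and 0.872). Utp15 had medians of 52.4, 58.7, 39.9 and 34.8 CPM in 1C, 2CB, 4CB and 8CB embryos, and its sign changed when single embryos were left out.

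Elsewhere in the processome called and not called members stood side by side, and differences between partners were not tested. Rcl1 and the GTPase Bms1 enter the particle together, and Rcl1 was lower by -1.34 ± 0.24 (adjusted p = 3.84e-05), from means of 114 and 138 CPM in 1C and 8CB embryos to 59.3 and 43 CPM in 2CB and 4CB embryos. Bms1, with means of 176, 217, 192 and 259 CPM in 1C, 2CB, 4CB and 8CB embryos, differed by -0.08 ± 0.2 (adjusted p = 0.775). In the Mphosph10 complex the scaffold Mphosph10 was lower (-0.59 ± 0.23, adjusted p = 0.0322, or 0.108 without 8CB replicate 2), while Imp3 and Imp4 were not called (-0.15 ± 0.23 and 0.21 ± 0.23, adjusted p = 0.61 and 0.469). Utp18 was lower (-0.55 ± 0.21, adjusted p = 0.0305) and Utp6, of the same subcomplex, was not called (-0.42 ± 0.31, adjusted p = 0.284). The remaining members called were Utp20, Nop14, Utp14a, Rrp9 and Dcaf13, between -0.72 and -0.88, of which Dcaf13 lost its call without 1C replicate 3 (adjusted p = 0.108). Krr1 was not called across the division (-0.25 ± 0.2, adjusted p = 0.327), and Noc4l, the partner of Nop14, had medians of 12.1 to 23.8 CPM and was not tested.

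The nucleolar factors of the large subunit numbered 19, of which 18 were tested, 11 were lower and none was higher, with a median of -0.72. Every one of the 18 log2 fold changes was negative. Among all tested genes 24% were lower and 31.3% higher, with a median of 0.12. Brix1, which helps to fold the precursor of the large subunit RNA, had a lowest, median and highest level of 80.9, 216 and 295 CPM in 1C, 58.4, 69.9 and 102 CPM in 2CB, 46.1, 69.5 and 99.1 CPM in 4CB and 141, 245 and 300 CPM in 8CB embryos. All but 1 of the 1C and 8CB embryos were above all 2CB and 4CB embryos, and the log2 fold change was -1.59 ± 0.2 (adjusted p = 2.67e-07). The members with a Brix domain are Brix1, Rpf1, Rpf2, Ppan and, in the processome, Imp4. Rpf1 was lower by -1.31 ± 0.29, Ppan by -0.81 ± 0.34 and Rpf2 by -0.72 ± 0.23 (adjusted p = 0.00039, 0.0499 and 0.0105), so that Imp4 alone of the 5 was not called. Ppan lost its call without 1C replicate 6 or 8CB replicate 6 (adjusted p up to 0.128). Rrs1, with which Rpf2 brings in the 5S particle, was lower by -0.65 ± 0.25 (adjusted p = 0.0323, or 0.101 without 1C replicate 3).

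Among the RNA methyltransferases, Ftsj3 (ENSMUSG00000020706.13, chr11:106249142-106256079, - strand, GRCm38) had a lowest, median and highest level of 222, 274 and 307 CPM in 1C, 96.4, 138 and 153 CPM in 2CB, 82.9, 120 and 185 CPM in 4CB and 210, 339 and 409 CPM in 8CB embryos. Its ranges did not overlap across the division, as for Npm1 and Nhp2 and for no other of the tested members. The log2 fold change was -1.21 ± 0.16 (adjusted p = 6.43e-07). Nop2 had means of 395, 176, 178 and 320 CPM in 1C, 2CB, 4CB and 8CB embryos and was lower by -1.04 ± 0.17 (adjusted p = 1.18e-05), with 11 of the 12 2CB and 4CB embryos below every 1C and 8CB embryo. In the complex of Pes1, Bop1 and Wdr12, which processes the large subunit precursor, Wdr12 was lower by -1.17 ± 0.28 and Pes1 by -0.56 ± 0.18 (adjusted p = 0.00118 and 0.0119). Wdr12 shares 20.8% of its 3′ stretches with other genes. Bop1 had medians of 4.65 to 25.2 CPM and was not tested. Pes1 varied little between embryos of a type, with an SD that was 16.2% of the mean in the median of the 4 types, under the 23.5% that counting error alone gives for its depth.

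Nifk, a partner of the proliferation antigen Ki-67, was the large subunit factor with the smallest difference. It had a lowest, median and highest level of 231, 283 and 425 CPM in 1C, 180, 304 and 429 CPM in 2CB, 271, 310 and 468 CPM in 4CB and 226, 369 and 481 CPM in 8CB embryos. All ranges overlapped, and the log2 fold change was -0.06 ± 0.18 (adjusted p = 0.826). Ebna1bp2 (-0.11 ± 0.17), Rrp1 (-0.21 ± 0.16) and Mak16 (-0.42 ± 0.25) were not called either. Rrp1 had medians of 504, 527, 454 and 599 CPM in 1C, 2CB, 4CB and 8CB embryos (adjusted p = 0.285). Its paralog Rrp1b had a wide spread, from 156 to 1520 CPM in 1C and from 111 to 1540 CPM in 8CB embryos, and the SD was 71.2% of the mean in the median of the types, of which counting error gives 10%. Over the tested members that figure had a median of 34.8% and over all tested genes of 47.4%. At -0.75 ± 0.37 Rrp1b did not pass the threshold (adjusted p = 0.1).

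Of the 5 factors that act later on the large subunit, 3 were lower, with a median of -0.48. The share lower over all tested genes was 24%, with a median of 0.12. Mrto4, which holds the place of the ribosomal stalk on the nascent particle, had medians of 72.5, 57.1, 44.3 and 84.7 CPM in 1C, 2CB, 4CB and 8CB embryos. Its log2 fold change was -0.71 ± 0.24 (adjusted p = 0.0131), and the lowest 4CB embryo, at 6.38 CPM, rested on 1 UMI. The GTPase nucleostemin (Gnl3) had a lowest, median and highest level of 153, 258 and 464 CPM in 1C, 96.5, 113 and 179 CPM in 2CB, 78.7, 185 and 251 CPM in 4CB and 118, 166 and 310 CPM in 8CB embryos. By their medians 1C embryos were highest and 2CB embryos lowest, with 4CB and 8CB embryos between them, and the log2 fold change was -0.67 ± 0.22 (adjusted p = 0.0133). The GTPase Gtpbp4 was lower by -0.48 ± 0.18 (adjusted p = 0.0296), and the GTPase Gnl2 was not called (-0.44 ± 0.3, adjusted p = 0.224). Nsa2 had medians of 44.7, 38.6, 38.7 and 36.2 CPM in 1C, 2CB, 4CB and 8CB embryos and a log2 fold change of -0.07 ± 0.26 (adjusted p = 0.846). Mrto4 and Nsa2 share 18.5% and 15.2% of their 3′ stretches with other genes, pseudogenes of Mrto4 among them.

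Of the members, 8 act late on the small subunit, and 5 of the 6 that were tested were lower, with a median of -0.63. For all tested genes the share lower was 24% and the median 0.12. Pno1, the RNA-binding partner of the endonuclease Nob1, had a lowest, median and highest level of 32.4, 143 and 192 CPM in 1C, 29.4, 46.1 and 120 CPM in 2CB, 12.8, 59 and 102 CPM in 4CB and 85.3, 153 and 237 CPM in 8CB embryos. A single 1C embryo was as low as the 2CB embryos, and a single 2CB embryo reached the lowest of the other 1C embryos. The highest 4CB embryo, at 102 CPM, was also above the lowest 8CB embryo, at 85.3 CPM. The sides thus overlapped, with a log2 fold change of -1.33 ± 0.29 (adjusted p = 0.000385). Nob1 itself had medians of 10.1 to 23.5 CPM and was not tested. Ltv1, an export-linked factor, had medians of 121, 91.4, 76.1 and 151 CPM in 1C, 2CB, 4CB and 8CB embryos and was lower by -0.66 ± 0.24 (adjusted p = 0.0224). Tsr1, a GTPase-like factor of the late particle, had medians of 153, 138, 133 and 170 CPM and overlapped in all types. Its log2 fold change of -0.41 ± 0.21 lay at the threshold (adjusted p = 0.0992) and was not called by DESeq2 (adjusted p = 0.14) or in 15 of the 24 fits without 1 embryo (adjusted p up to 0.28). The kinase Riok1 ranged from 15.6 to 138 CPM in 1C and 8CB embryos and from 23.9 to 160 CPM in 2CB and 4CB embryos, with a log2 fold change of 0.13 ± 0.32 (adjusted p = 0.774). Bysl and Rrp12, which join in the nucleolus and travel with the particle, were lower by -0.6 ± 0.23 and -1.15 ± 0.31 (adjusted p = 0.0294 and 0.0028).

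The comparison of early nucleolar with late cytoplasmic factors rested on 39 tested early and 4 tested late members. The early class held the box C/D core, the small subunit processome and the nucleolar large subunit factors. The late class held Nob1, Ltv1, Pno1, Riok1, Riok2 and Tsr1. All other members were in neither class, among them Npm1, Ncl, the box H/ACA core, Gnl2 and Gnl3. Of the early members 23 of 39 were lower (59%), with a median log2 fold change of -0.72 and a range from -1.59 to 0.29, beside 24% of all tested genes and their median of 0.12. Of the late members 3 of 4 were lower (75%), with a median of -0.54 and a range from -1.33 to 0.13. One of the 3 was Tsr1, whose call was lost under DESeq2 and in 15 of the 24 fits without 1 embryo. With Tsr1 not called the late count was 2 of 4, a smaller share than that of the early members. With a wider late class, which adds Bysl, Rrp12, Mrto4, Gtpbp4 and Nsa2, 7 of 9 were lower (77.8%) and the median was -0.6. The sums that follow cover all 41 early and 5 late members in the table, tested or not. The early members summed to 0.919% ± 0.12, 0.602% ± 0.0475, 0.639% ± 0.0435 and 0.863% ± 0.0725 of the UMIs of 1C, 2CB, 4CB and 8CB embryos, respectively (SD, n = 6). For the late members the sums were 0.0533% ± 0.0105, 0.0345% ± 0.00494, 0.0387% ± 0.00858 and 0.0567% ± 0.0122. Per 100 CPM of early members the late ones gave 5.87 ± 1.23, 5.8 ± 1.24, 6.07 ± 1.41 and 6.64 ± 1.72 CPM in the same order (SD, n = 6). Both sums had their lower means in 2CB and 4CB embryos, and the means of their ratio differed by less than the SD between embryos of a type. No p was computed over the classes, since their members were chosen.

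By subunit, 17 of 27 tested small subunit and box C/D members were lower (median -0.6), and 14 of 23 tested large subunit members were lower (median -0.68). Beside these and the next counts, 24% of all tested genes were lower and 31.3% higher, with a median of 0.12. Leaving out the 6 members that share more than 10% of their 3′ stretches with other genes gave 32 lower of 50. Among the 35 tested members that overlap no exon on the opposite strand 24 were lower. Of the 11 members with an E-box in the promoter window 10 were lower, Imp4 being the exception and Tsr1 losing its call in 15 of the 24 fits without 1 embryo, and of the 36 tested members with a window but no E-box 20 were lower. Among all tested genes with a window 28.7% of those with and 22.5% of those without an E-box were lower. For the ETS motif the member counts were 12 of 17 and 18 of 30, and the shares of all tested genes 25.3% and 22.6%. The motif counts are a description without a test.

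**Figure D4:**
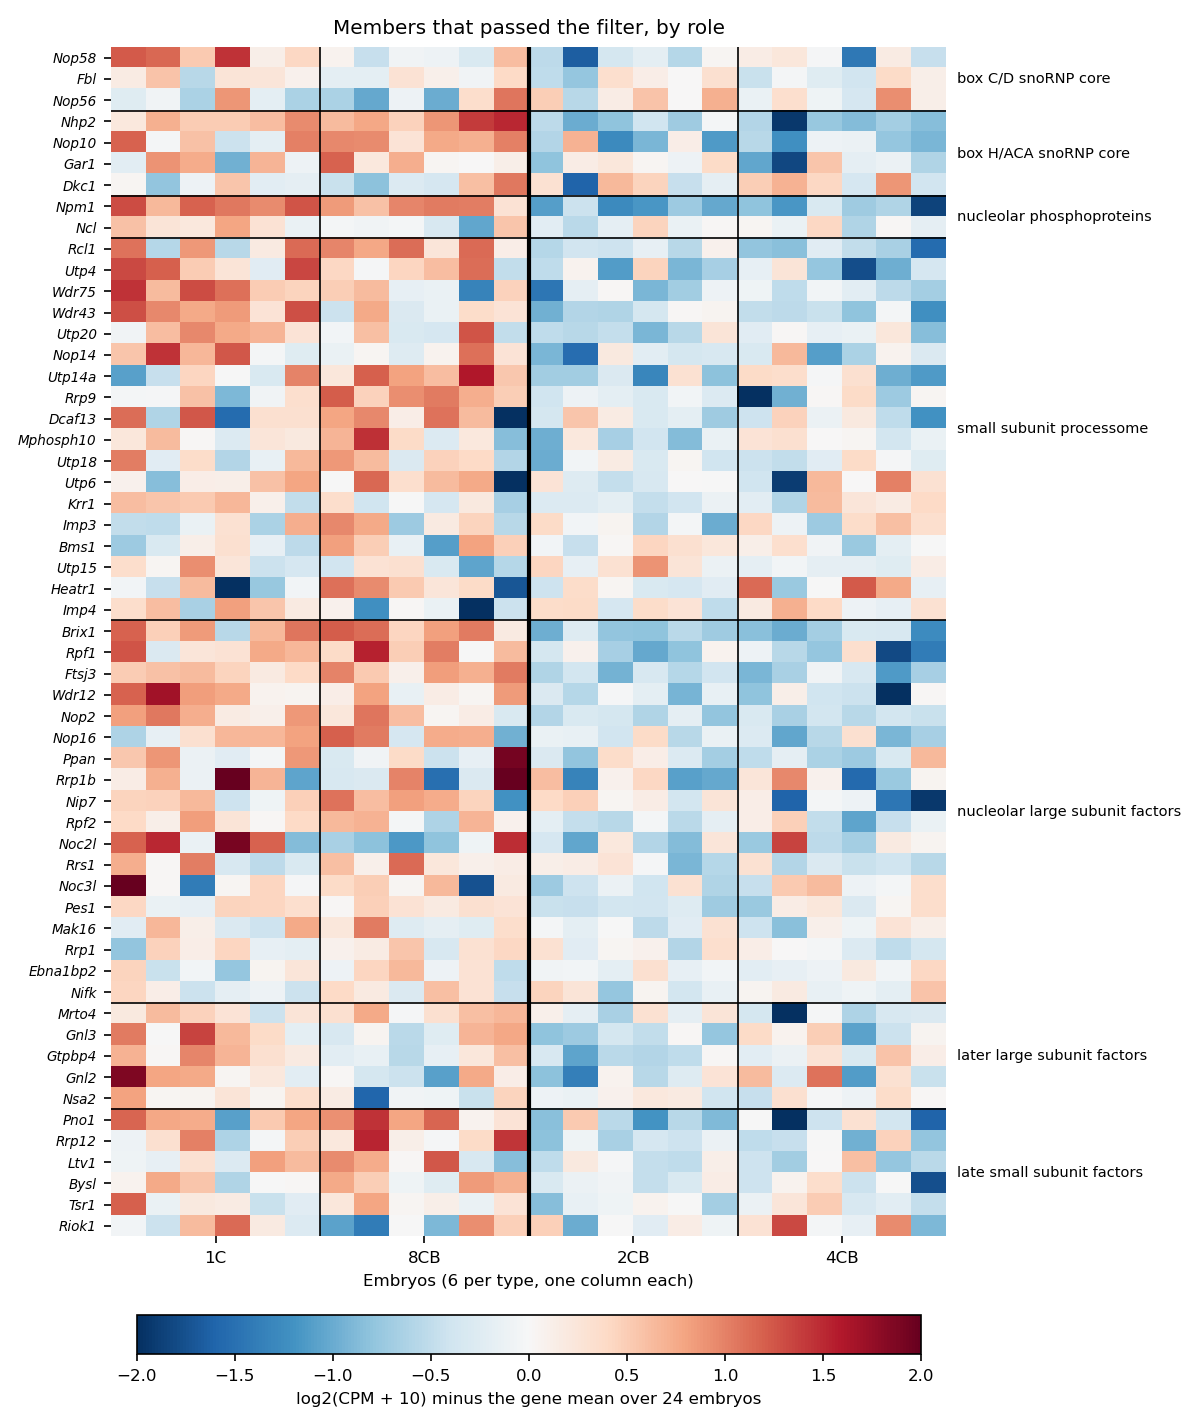
Level of the 56 tested members in each embryo, as log2(CPM + 10) minus the mean of the gene over the 24 embryos, with 1C and 8CB embryos left of the thick line, 2CB and 4CB embryos right of it and rows grouped by role. Rows of Npm1, Nhp2, Brix1 and Ftsj3 change colour at the line, Nop58 and Gnl3 are reddest in 1C embryos, and Rrp1b and Noc2l vary among embryos of a type.

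The division was then taken apart into comparisons that share no embryo. For 2CB against 1C embryos, 24 of the 56 members were lower and none was higher, where 17.5% of all tested genes were lower and 24% higher. For 4CB against 8CB embryos, 22 were lower and none was higher, where 17% of all tested genes were lower and 23.2% higher. Without 8CB replicate 1 Imp4 was called higher (0.79 ± 0.35, adjusted p = 0.0897), and without 8CB replicate 5 Riok1 (1.05 ± 0.48, adjusted p = 0.0965). The members lower in both comparisons were 13, where 11% of all tested genes were lower in both. They were Nhp2, Nop10, Npm1, Wdr43, Utp4, Rcl1, Nop2, Wdr12, Rpf1, Ftsj3, Brix1, Pno1 and Rrp12.

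Another 11 members were called lower in 2CB against 1C embryos but not in 4CB against 8CB embryos, as were 6.46% of all tested genes. They were Nop58, Wdr75, Utp20, Krr1, Nop14, Noc2l, Pes1, Rpf2, Gnl2, Gnl3 and Gtpbp4, and include each of the 3 GTPases of the large subunit. Gtpbp4 illustrates them, with a lowest, median and highest level of 176, 251 and 350 CPM in 1C, 78.9, 118 and 177 CPM in 2CB, 139, 175 and 264 CPM in 4CB and 115, 155 and 268 CPM in 8CB embryos. Here 8CB embryos were as low as 4CB embryos. Its log2 fold change was -1.03 ± 0.25 for 2CB against 1C (adjusted p = 0.00216) and 0.08 ± 0.26 for 4CB against 8CB (adjusted p = 0.839). Noc2l had the widest gap between the comparisons, -1.92 ± 0.67 and 0.57 ± 0.79 (adjusted p = 0.0256 and 0.622), on medians of 55.2, 11, 14.9 and 7.48 CPM in 1C, 2CB, 4CB and 8CB embryos. This gap rests on few counts, 56, 40, 32 and 15 UMIs over all embryos of these types in the same order.

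The reverse was found for 9 members, Gar1, Utp14a, Rrp9, Nop16, Nip7, Rrs1, Mrto4, Ltv1 and Bysl, which were called lower in 4CB against 8CB embryos only, as were 5.94% of all tested genes. Rrp9, a protein of the snoRNP that starts processome assembly, had means of 227, 186, 169 and 398 CPM in 1C, 2CB, 4CB and 8CB embryos, the 8CB embryos being the high ones. The log2 fold change was -0.3 ± 0.31 for 2CB against 1C (adjusted p = 0.474) and -1.29 ± 0.31 for 4CB against 8CB (adjusted p = 0.00224). For Nip7 the values were -0.13 ± 0.37 and -1.3 ± 0.38 (adjusted p = 0.811 and 0.00919).

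**Figure D5:**
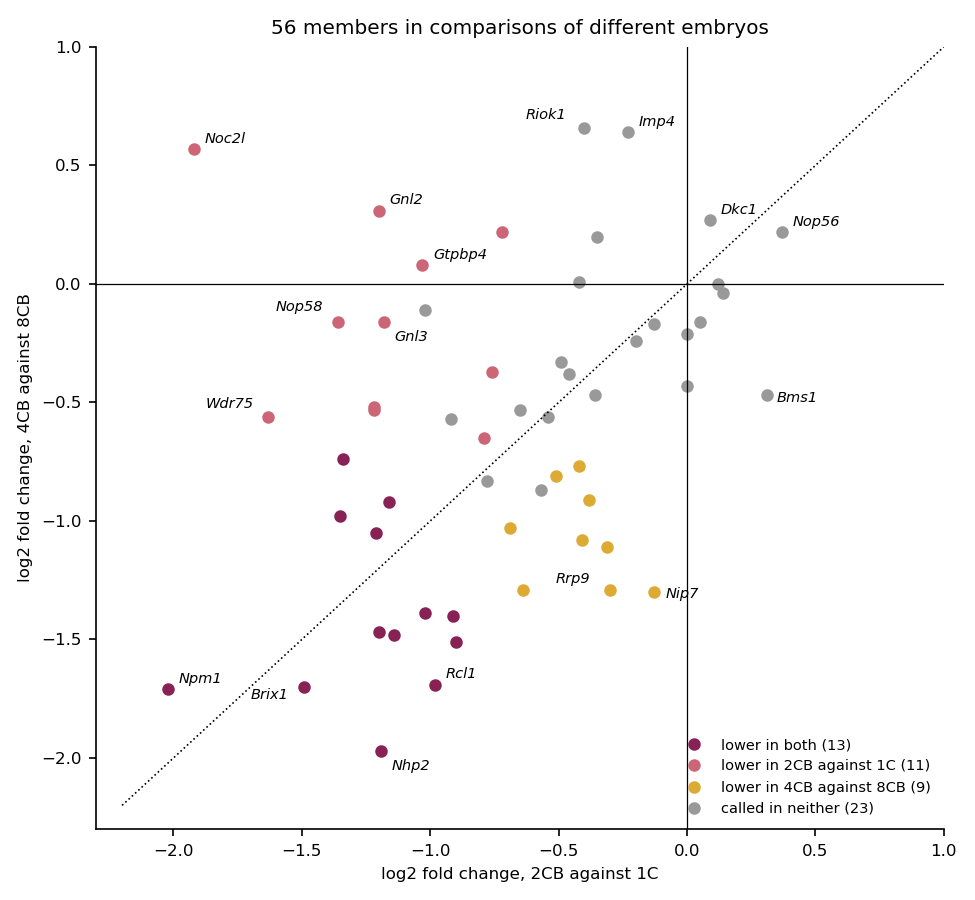
Log2 fold change of the 56 tested members in 2CB against 1C embryos (horizontal) and in 4CB against 8CB embryos (vertical), coloured by the comparisons in which a member was called lower, with a dotted line of equal change. The 13 members lower in both lie at the lower left, Npm1 at -2.02 and -1.71, while Gtpbp4, Gnl2 and Noc2l lie above 0 on the vertical axis.

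These differences between the comparisons did not pass a test of their own. The test of the difference between 4CB against 8CB and 2CB against 1C called none of the 56 members and 0% of all tested genes in edgeR, and none in DESeq2. At an unadjusted p below 0.05 it had 10 of the 56 members (17.9%), beside 8.96% of all tested genes. The adjusted p was 0.339 for Gtpbp4, 0.373 for Nop58, 0.486 for Noc2l, 0.501 for Rrp9 and 0.516 for Nip7. So a call in 1 comparison and not in the other is not shown to be a difference between them.

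Within a pool, where embryos shared their library preparation, no member was called. For 8CB against 1C embryos edgeR called none of the 56 and 0% of all tested genes, and DESeq2 called no member. Without the filter on low counts 104 of all genes (0.449%) were called, and no member. At an unadjusted p below 0.05 there were 9 members (16.1%), beside 9.26% of all tested genes, and the median log2 fold change of the members was 0.07. For 4CB against 2CB embryos no member was called by either tool, beside 0.0337% of all tested genes in edgeR, and without the filter 48 of all genes (0.207%) and no member. At an unadjusted p below 0.05 there were 2 members (3.57%), beside 4.43% of all tested genes, and the median was -0.01. Mean CPM was higher in 1C than in 8CB embryos for 23 of the 56 tested members and higher in 2CB than in 4CB embryos for 26.

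Other genes of ribosome assembly, outside the 60, were counted from 6 lists of 121 genes. Of the 94 that were tested 53 were lower in 2CB and 4CB embryos (56.4%) and 2 were higher, with a median log2 fold change of -0.65, where 24% of all tested genes were lower and 31.3% higher, with a median of 0.12. The counts lower were 12 of 25 for further small subunit factors, 18 of 31 for further large subunit factors, 4 of 8 for cytoplasmic maturation of the large subunit, 8 of 12 for transcription by RNA polymerase I, 6 of 9 for the RNA exosome and 5 of 9 for snoRNP assembly. The largest change was that of the helicase Ddx21, which couples transcription by RNA polymerase I to processing, with means of 821, 205, 202 and 718 CPM in 1C, 2CB, 4CB and 8CB embryos and a log2 fold change of -1.93 ± 0.16 (adjusted p = 1.07e-10). Pelp1, of a complex that releases the large subunit from the nucleolus, was lower by -1.65 ± 0.15 (adjusted p = 9.61e-10). Taf1d, a subunit of the selectivity factor of RNA polymerase I, was lower by -1.55 ± 0.19 (adjusted p = 1.11e-07). The 2 genes that were higher were Pih1d1, of the chaperone complex that assembles box C/D particles, at 1.3 ± 0.25 (adjusted p = 7.39e-05), and the cytoplasmic GTPase Efl1, at 0.68 ± 0.31 (adjusted p = 0.0733). Pih1d1 had means of 30.9, 106, 82.9 and 46.5 CPM in 1C, 2CB, 4CB and 8CB embryos.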

How the data were processed

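RNA of 24 single pseudoblastocysts was measured, 6 each of 1C, 2CB, 4CB and 8CB embryos, grouped by the stage in the column names within the 2 library pools that the labels give. The deposited table holds UMI counts per gene, which the authors made by CEL-Seq2, alignment to GRCm38 with HISAT2 2.2.6 and counting with HTSeq 0.6.1. Their later normalization, and their test with DESeq2 1.10.1, are not in the table. The annotation release and the strand setting are not given in the sources used here, and 22 members overlap an exon on the opposite strand. The largest count, 53029, exceeds what UMIs of 6 bases can number, so the values cannot all be distinct UMIs. A further 24 columns, named for morulae, were not used. Symbols came from GENCODE M21, which gave 51633 of 52366 genes a symbol.

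Members and lists were chosen with earlier results of these data known. Counts were normalized with TMM (factors 0.928 to 1.07), filtered with filterByExpr and tested in edgeR 4.0.16 (limma 3.58.1, R 4.3.3) with 1 mean per embryo type over all 24 embryos. Calls were made at a Benjamini-Hochberg adjusted p below 0.1 over 5940 genes. The tests were run on simulated data first. The common biological coefficient of variation was 0.442, and the shallowest embryo had 70941 UMIs. The sources do not say which embryos share parents, so p-values measure the spread between these embryos. Embryos of different types that carry one number form 36 pairs, and their deviations from the type means correlated at -0.0156 on average (-0.248 to 0.224), so numbers were not taken as pairing. Genes given in full were, in each role, the tested members with the lowest and the highest p and the highest mean CPM, and every tested late cytoplasmic member. Of the pathway lists they were the 3 largest changes and all genes that were higher. Other members were named after their values were seen, by shared complex. Alternatives were DESeq2 1.42.0, its size factors in edgeR, other filters, thinning to 70941 UMIs, an adjusted p below 0.05, a replicate block, only the 12 embryos compared, a wider late class and each embryo left out, and, chosen after seeing the data, the members with little shared 3′ sequence. Promoters were read from RefSeq windows. Python 3.11.15 and pandas 2.3.3 were used for the summaries.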

Additional observations from a re-analysis of the deposited data

Results flagged for a closer look

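Each named member was examined in each embryo type for an embryo far from the other 5 on log2 of TMM-normalized CPM with a prior count of 2 (Dixon's criterion, 0.625 for 6 embryos). In 72 groups 7 were found, and chance gives about 1 in 20 groups. On log2 of the plain CPM given here, 3 of the 7 were past 0.625, namely Nhp2, Mrto4 in 4CB replicate 2 and Pno1 in 1C replicate 4, and the other ratios were 0.562 to 0.606. Fbl was low in 1C replicate 3, at 46.2 CPM against 77.9 to 112 CPM in the other 1C embryos. Nhp2 was low in 4CB replicate 2, at 63.8 CPM against 144 to 178 CPM, on 10 UMIs. Mrto4 was low in the same embryo, at 6.38 CPM against 34.5 to 57.8 CPM, on 1 UMI, and in 1C replicate 5, at 40.8 CPM against 68.6 to 96.2 CPM. Pno1 was low in 1C replicate 4, at 32.4 CPM against 120 to 192 CPM, on 4 UMIs, and high in 2CB replicate 2, at 120 CPM against 29.4 to 52.1 CPM. Tsr1 was high in 8CB replicate 2, at 268 CPM against 136 to 183 CPM.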

How the results depend on the processing

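The 35 members lower in 2CB and 4CB embryos were 28 to 36 under all other settings, and none was higher except Nop56 without 8CB replicate 6 (0.45 on the log2 scale, adjusted p = 0.0845). After thinning every embryo to 70941 UMIs, the number called among the 4 types went from 29 to 15 (all tested genes 47.1% to 34.1%), and the number lower across the division to 28 (24% to 18.9%), for 2CB against 1C to 16 (17.5% to 12.3%) and for 4CB against 8CB to 15 (17% to 12.5%). With a replicate block these counts were 27, 34, 24 and 22. DESeq2 called 35 members across the division and, unlike edgeR, 1 higher in 4CB against 8CB embryos, Imp4 (0.69, adjusted p = 0.0883). Without a filter 29 of 59 were lower, where 9.61% of the 23171 genes were. Leaving out each embryo gave 32 to 36 members across the division, 25 to 33 among the types, 22 to 26 for 2CB against 1C and 18 to 24 for 4CB against 8CB. For other genes of the pathway it gave 49 to 54 lower. The median of early members stayed between -0.75 and -0.63 and that of late members between -0.6 and -0.47.

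Of the 18 members given in full, Tsr1 passed the threshold in the main setting and with the filter of at least 5 UMIs in 12 embryos, but not under DESeq2 (adjusted p = 0.14), its size factors (0.143), no filter (0.276), thinning (0.262), the block (0.138) or the stricter threshold. It also lost the call in 15 of the 24 fits without 1 embryo. Over all 24 of these fits its log2 fold change ran from -0.49 to -0.25. Members near 0 changed sign: Nsa2 with thinning (0.05), and, with 1 embryo left out, Utp15 (-0.05 to 0.19), Nifk (-0.12 to 0.01) and Riok1 (-0.03 to 0.32), while Nsa2 (-0.2 to 0) reached 0 at this rounding. The cause of these changes was not tested, beyond the fewer counts or embryos of each setting. Members with low CPM rest on few UMIs in the shallow embryos.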

Other observations

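For some members the embryo with the fewest UMIs stood apart, a pattern noticed in the values and not tested. The embryo with the lowest total of UMIs had the highest Nop56 level in all 4 types, at 1020 CPM in 1C, 904 CPM in 2CB, 1050 CPM in 4CB and 1160 CPM in 8CB embryos. No other of the 56 tested members did so, and 0.589% of all tested genes did. For Nop58, Dkc1, Noc2l and Gtpbp4 the shallowest embryo was the highest in 3 of the 4 types, and for Dcaf13, Mphosph10 and Ltv1 it was the lowest in 3 of 4.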
